A study of Mus musculus with 8 samples.

Results

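The cathepsin loci were the genomic windows around 9 genes that encode lysosomal proteases, Ctsa, Ctsb, Ctsc, Ctsd, Ctsh, Ctsk, Ctsl, Ctss and Ctsz. A ChIP-Seq peak belonged to a locus when its centre lay in the gene body or within 20 kb of it in the GENCODE annotation of mm10. This rule took 71 of the 67673 peaks in 4 peak lists, and the 9 genes stood among 21951 protein-coding genes. The rule used the position of the peaks and no measured value, but the 9 genes were chosen with earlier results of these data known.

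The peaks came from X18.1.1, a murine cell line derived from a radiation-induced acute myeloid leukaemia. In this line a Pu.1 allele is deleted, and the remaining allele has a point mutation in the part that binds DNA and lacks a stretch of the PEST domain. PU.1− was a clone transduced with the empty retroviral vector, and PU.1+ was a clone transduced with PuER, wild-type PU.1 fused to an oestrogen receptor domain that tamoxifen metabolites activate. Both clones carried the mutant endogenous Pu.1, and both received 100 nM of the ligand 4-hydroxytamoxifen (OHT) for 2 h. The PU.1 antibody detects the mutant protein as well as the fusion, so peaks in PU.1− can be of the mutant protein and peaks in PU.1+ of either. Peaks called from background cannot be told from these by position alone.

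Each antibody was used in 1 library per condition, and each condition was a single clone, so clone and condition cannot be told apart and no test was possible. The peak lists hold positions without heights, scores or read counts, and the depth of the libraries is unknown. A peak that is absent from a list therefore fell short of a calling threshold, which does not show that the factor was absent. All confidence intervals below are exact 95% binomial (Clopper-Pearson) intervals and cover counting error only. The lists also hold no expression, so the level of the fusion protein and the identity of the cells could not be checked from them.

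Cathepsins are proteases of the endosome and lysosome that degrade ingested and intracellular proteins, and monocytes and macrophages carry large amounts of them. Most of the 9 are cysteine proteases of the papain family, whereas Ctsd encodes an aspartic protease and Ctsa a serine carboxypeptidase. PU.1 is an ETS-family factor of myeloid and B cells that binds a GGAA core, usually followed by GT. CEBPA is a basic leucine zipper factor of myeloid cells and binds sites of the type TTGCNNAA, where N is any base.

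The sequences below show what the DNA under these peaks looks like. Each is the central 80 bp of a peak in the mm10 reference, on the plus strand, and none touches an annotated UTR. A peak is termed gained where it was called in PU.1+ without an overlapping peak of the same antibody in PU.1−, and lost where the reverse held. Both terms describe calls, not measured changes in binding. The first 4 sequences are gained PU.1 peaks, namely the peak with a GGAAGT site nearest to the start of its gene, for each gene that had such a peak. GGAAGT, or ACTTCC where the site is on the other strand, is in capitals.
Ctsb intron, chr14:63129175-63129254: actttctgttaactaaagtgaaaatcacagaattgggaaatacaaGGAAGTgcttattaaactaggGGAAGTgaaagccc
Ctsc intron, chr7:88303627-88303706: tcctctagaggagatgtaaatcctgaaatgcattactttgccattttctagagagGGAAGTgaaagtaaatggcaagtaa
Ctsd upstream, chr7:142394373-142394452: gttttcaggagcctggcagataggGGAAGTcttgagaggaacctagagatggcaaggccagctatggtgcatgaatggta
Ctsh upstream, chr9:90034126-90034205: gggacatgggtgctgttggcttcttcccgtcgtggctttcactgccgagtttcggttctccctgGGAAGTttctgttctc

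The next 4 were chosen after the values were seen, because they hold an ETS site and a CEBP site in the same window. Both kinds of site are in capitals, with TTNNGCAA as the other strand of the CEBP site. They are a gained PU.1 peak at Ctsd, a PU.1 peak shared by both conditions at Ctsz, and shared CEBPA peaks at Ctsd and Ctsc, each at its PU.1+ position. In the second Ctsd sequence both sites overlap by 1 base.
Ctsd upstream, PU.1, chr7:142403679-142403758: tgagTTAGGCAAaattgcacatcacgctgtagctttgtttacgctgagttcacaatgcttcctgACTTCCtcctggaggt
Ctsz intron, PU.1, chr2:174437780-174437859: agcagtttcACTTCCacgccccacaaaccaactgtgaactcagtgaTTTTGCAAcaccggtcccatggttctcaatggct
Ctsd upstream, CEBPA, chr7:142399375-142399454: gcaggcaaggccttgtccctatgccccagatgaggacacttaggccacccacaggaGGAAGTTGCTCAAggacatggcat
Ctsc promoter, CEBPA, chr7:88277377-88277456: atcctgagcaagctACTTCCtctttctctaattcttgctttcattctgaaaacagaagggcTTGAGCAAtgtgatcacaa

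The last sequences, also chosen after the values were seen, are gained PU.1 peaks that hold GGAA, in capitals on either strand, but no GGAAGT. They overlapped gained CEBPA peaks.
Ctss upstream, chr3:95519041-95519120: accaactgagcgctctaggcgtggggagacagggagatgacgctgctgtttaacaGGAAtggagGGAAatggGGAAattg
Ctsz promoter, chr2:174439587-174439666: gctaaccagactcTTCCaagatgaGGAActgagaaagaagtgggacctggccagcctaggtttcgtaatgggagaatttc

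Within 20 kb of the cathepsin genes, 7 PU.1 peaks were called in PU.1− and 23 in PU.1+. The PU.1+ number was 3.29 times that of PU.1−, beside 2.97 times over the whole lists, which held 5288 and 15683 PU.1 peaks. For CEBPA, 19 peaks were called at the cathepsin loci in PU.1− and 22 in PU.1+, a ratio of 1.16. The whole CEBPA lists went the other way, from 26119 to 20583 peaks, a ratio of 0.788. Summed over the loci, CEBPA peaks were thus somewhat more numerous in PU.1+ while the whole list was shorter. The numbers were small and without a replicate. The largest rise was at Ctsc, from 2 to 6 peaks. Ctsk, Ctss and Ctsz went from 1 to 2 each, with the Ctsk peaks also counted for Ctss. Ctsd fell from 4 to 3 and Ctsl from 4 to 2, while Ctsb and Ctsh did not change.

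An overlap of 1 bp or more made a peak shared, and shared peaks were counted at their PU.1+ position. At the cathepsin loci PU.1 had 17 gained, 6 shared and 1 lost peak. CEBPA had 7 gained, 15 shared and 4 lost peaks. Peaks that overlap in any of the lists merged into 37 sites, of which 10 held a PU.1 peak of PU.1+ and nothing else. CEBPA peaks of both conditions without PU.1 made up 7 sites, and peaks in all 4 lists made up 5, at Ctsd, Ctsl, Ctss and Ctsz. In PU.1+ but not PU.1−, both factors were called at 4 sites, at Ctsb, Ctsc, Ctss and Ctsz. At Ctsh, a site counted as PU.1 alone overlapped a CEBPA peak whose centre lay just outside the window, as described below.

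**Figure D1:**
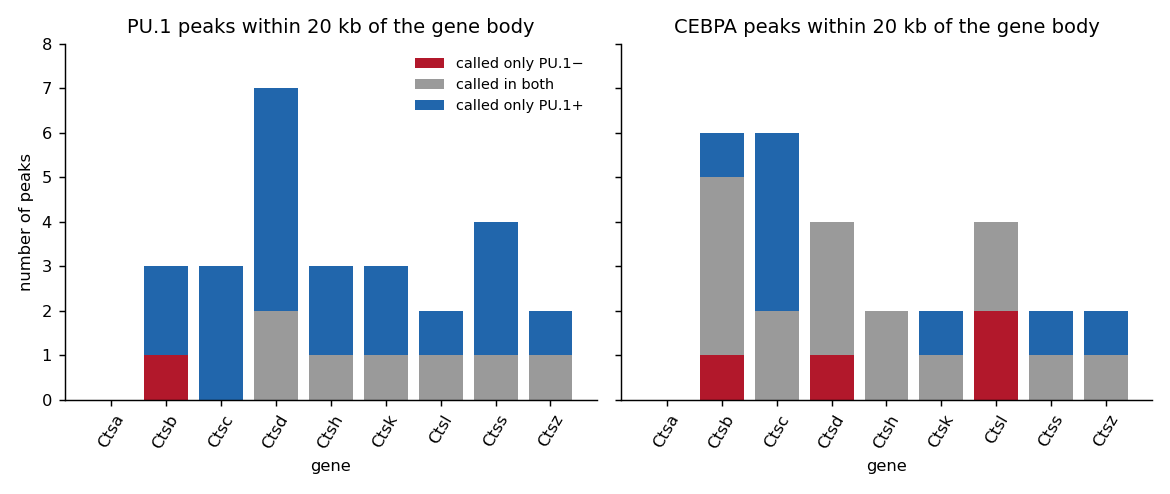
Number of PU.1 peaks (left) and CEBPA peaks (right) within 20 kb of each cathepsin gene, stacked by class as lost (red, only PU.1−), shared (grey) or gained (blue, only PU.1+). Blue is the largest part of each PU.1 bar, with 5 peaks at Ctsd, except at Ctsl and Ctsz, where it equals grey. Grey is the largest part of the CEBPA bars of Ctsb, Ctsd and Ctsh. At Ctsc blue is larger, with 4 gained CEBPA peaks against 2 shared. In the CEBPA bars of Ctsk, Ctss and Ctsz grey equals blue, and in that of Ctsl grey equals red. The peaks between Ctsk and Ctss are counted for both genes, and Ctsa has none.

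A gained PU.1 peak was found at 8 of the 9 cathepsin genes, all but Ctsa, beside 36.7% of all protein-coding genes. A shared PU.1 peak was found at 6 of 9, beside 13.4% of all genes, and a lost PU.1 peak at 1 of 9, Ctsb, beside 13.7%. A gained CEBPA peak was found at 5 of 9 genes (Ctsb, Ctsc, Ctsk, Ctss and Ctsz), beside 11.4% of all genes. A shared CEBPA peak was found at 8 of 9, beside 48.3%, and a lost CEBPA peak at 3 of 9 (Ctsb, Ctsd and Ctsl), beside 30.1%. The genes are not independent, since Ctsk and Ctss are neighbours on chromosome 3 and 7 peaks lie in the windows of both.

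Windows of different length hold different numbers of peaks, so the counts were also taken per length of DNA. The cathepsin windows merged into 8 stretches of 498.7 kb in all, and they held 1.4 PU.1 peaks per 100 kb in PU.1− and 4.61 in PU.1+. The windows of all protein-coding genes held 0.302 and 0.847. CEBPA peaks numbered 3.81 per 100 kb at the cathepsin loci in PU.1− and 4.41 in PU.1+, beside 1.45 and 1.14 for all genes. The cathepsin windows thus had a higher density than the windows of all protein-coding genes, merged and pooled, in every list, PU.1− included. The pooled figure is not a mean over genes, since long windows weigh more in it. Gained peaks came to 3.41 per 100 kb for PU.1, beside 0.683, and to 1.4 for CEBPA, beside 0.131.

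**Figure D2:**
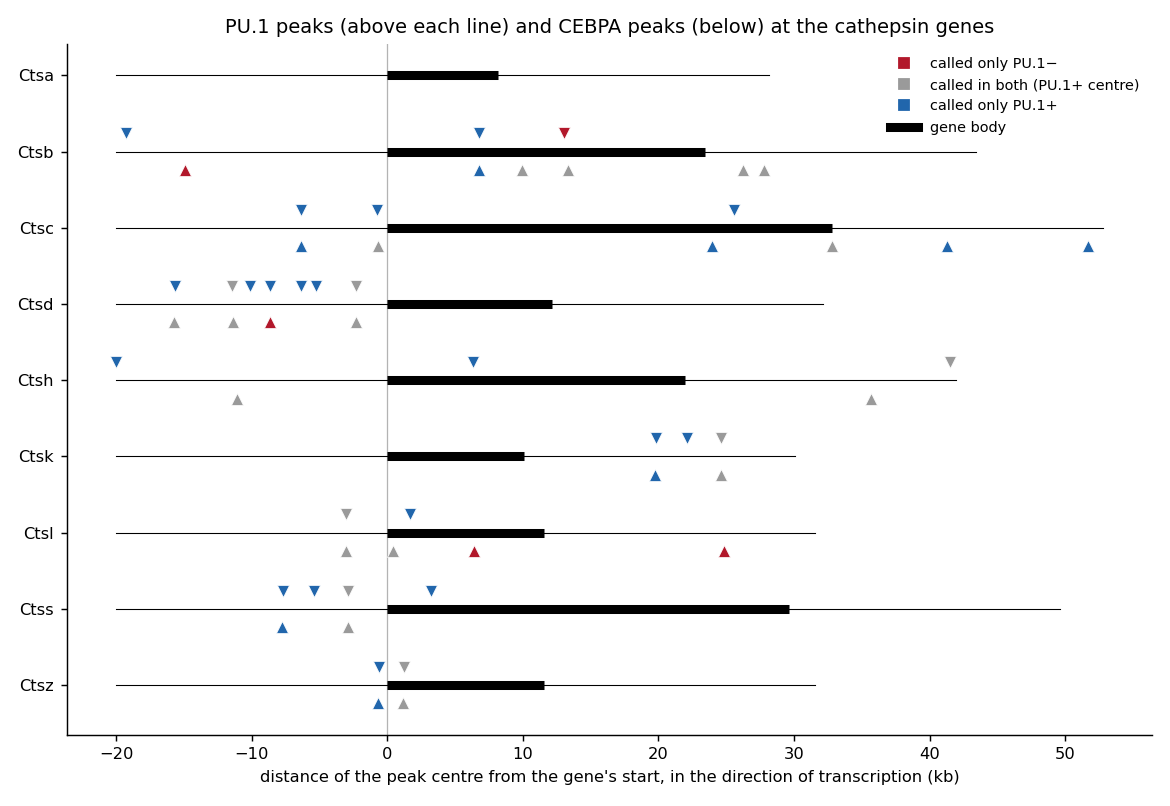
Position of each peak centre relative to the start of the gene, in kb along the direction of transcription, with PU.1 peaks above the line and CEBPA peaks below, coloured by class. The thin line is the 20 kb window and the thick line the gene body. All PU.1 peaks of Ctsd stand upstream of the gene, those of Ctsk stand downstream of it, and Ctsa has none.

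Among the cysteine endopeptidases, Ctsb (chr14:63122462-63145923, plus strand) had 1 PU.1 peak in PU.1− and 2 in PU.1+, none of them shared. The PU.1+ peaks lay at −19.3 kb from the gene start, between genes, and at 6.75 kb, in an intron. The intronic peak holds 2 GGAAGT sites in its central 80 bp and had a gained CEBPA peak 6 bp away. No PU.1 call at Ctsb was thus common to both conditions, and the intronic site was gained for both factors.

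The PU.1 peak of Ctsb in PU.1− lay at 13.05 kb, in an intron, and was the only lost PU.1 peak of the cathepsin loci. Its central 80 bp hold no GGAA, and it lay 305 bp from the PU.1+ centre of a shared CEBPA peak. CEBPA itself had 5 peaks in each condition at Ctsb, of which 4 were shared. Of these, the peaks at 26.25 and 27.82 kb, counted at their PU.1+ centres, lay in introns of the neighbouring gene Fdft1, which encodes squalene synthase. The CEBPA peak at −14.93 kb was lost.

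Ctsl (chr13:64359337-64370890, minus strand) had 1 PU.1 peak in PU.1− against 2 in PU.1+, and 4 and 2 CEBPA peaks. Alone among the 9 genes it had 2 lost CEBPA peaks, at 6.42 kb in an intron and at 24.87 kb downstream of the gene. A gained PU.1 peak lay at 1.70 kb, in an intron, without an overlapping CEBPA peak. A shared CEBPA peak stood at the promoter, at 0.43 kb in PU.1+.

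The shared PU.1 peak of Ctsl rested on an overlap of 124 bp, with centres 276 bp apart. In PU.1− its centre lay at −2.75 kb, and the central 80 bp hold a GGAAGT site and no CEBP site. In PU.1+ it lay at −3.03 kb, 2 bp from the centre of a shared CEBPA peak, and the central 80 bp hold a CEBP site and no GGAAGT. By a stricter definition of shared peaks this would be a lost site beside a gained site.

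Ctss (chr3:95526786-95556403, plus strand), whose product processes the invariant chain of MHC class II, had 1 PU.1 peak in PU.1− and 4 in PU.1+. The gained peaks lay at −7.71 kb and −5.41 kb, between Ctsk and Ctss, and at 3.22 kb in a Ctss intron. The peak at −7.71 kb overlapped a gained CEBPA peak, with centres 40 bp apart. The shared PU.1 peak at −2.89 kb coincided with a shared CEBPA peak, 14 bp away in PU.1+. None of these PU.1 peaks holds GGAAGT in the central 80 bp or anywhere in its 400 bp, while each holds 2 or 3 GGAA cores in the central 80 bp.

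Ctsk (chr3:95499256-95509362, plus strand), which encodes the collagen-degrading cathepsin of osteoclasts, lies directly upstream of Ctss. Its window held 1 PU.1 peak in PU.1− against 3 in PU.1+, and 1 and 2 CEBPA peaks, all of which were peaks between Ctsk and Ctss and nearer to Ctss. No peak of any list had Ctsk as its nearest protein-coding gene within this window. A gained PU.1 peak and a gained CEBPA peak stood just beyond the window on its other side, at 20138 and 20142 bp from the gene body.

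Among the exopeptidases, Ctsc (chr7:88278085-88310888, plus strand) encodes dipeptidyl peptidase I, which activates the serine proteases of granulocytes. It had no PU.1 peak in PU.1− against 3 in PU.1+, and its CEBPA peaks went from 2 to 6, of which 4 were gained. None of the other 8 genes had more than 1 gained CEBPA peak, and 0.301% of protein-coding genes had 3 or more. The gained PU.1 peaks lay at −6.37 kb, at the promoter at −0.74 kb, and at 25.58 kb in an intron. The peak at −6.37 kb overlapped a gained CEBPA peak with centres 11 bp apart. Neither holds the exact letters GGAAGT or TTGCNNAA in its central 80 bp, while each holds TTGCNNAA elsewhere in its 400 bp. Looser forms of the CEBP site were not searched.

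The promoter of Ctsc had a CEBPA peak in both conditions, but with an overlap of only 67 bp. The centre lay at −0.34 kb in PU.1− and at −0.67 kb in PU.1+, 333 bp apart. The PU.1+ centre was 67 bp from the gained PU.1 peak, and its central 80 bp, printed above, hold an ETS site of the longer form GAGGAAGT and a CEBP site. In PU.1− the peak centre holds neither. By a stricter definition of sharing, this pair too would be a lost and a gained peak. The other gained CEBPA peaks of Ctsc lay at 23.93, 41.27 and 51.66 kb, each with a CEBP site in the central 80 bp and none with a PU.1 peak.

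Ctsz (chr2:174427493-174439039, minus strand), a carboxypeptidase, had 1 PU.1 peak in PU.1− against 2 in PU.1+, and the same numbers of CEBPA peaks. Both factors had a gained peak at the promoter, at −0.59 kb for PU.1 and −0.65 kb for CEBPA, with centres 60 bp apart. Both factors also had a shared peak in an intron, at 1.22 kb for PU.1 in PU.1+, where the central 80 bp hold a GGAAGT site and a CEBP site. The locus thus held a shared site and a gained site for the same pair of factors within 2 kb.

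Ctsh (chr9:90054152-90076089, plus strand), an aminopeptidase, had 1 PU.1 peak in PU.1− against 3 in PU.1+, and 2 shared CEBPA peaks. Only 1 of these PU.1 peaks lay nearest to Ctsh, the gained peak at 6.34 kb with its centre in a coding exon, and its central 80 bp hold no GGAA. The gained peak at −19.99 kb was nearer to Rasgrf1, which encodes a guanine nucleotide exchange factor. The shared peak at 41.52 kb lay in an exon of Morf4l1, which encodes a chromatin protein, and was the only shared PU.1 peak of the cathepsin loci without a CEBPA peak. Of the CEBPA peaks, those at −11.08 kb were nearest to Ctsh and those at 35.71 kb, at the PU.1+ centre, to Morf4l1.

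Ctsd (chr7:142375911-142388038, minus strand), the aspartic protease, had the most PU.1 peaks of the 9 genes, with 2 in PU.1− and 7 in PU.1+. All 7 lay upstream of the gene and between genes, from −2.33 kb to −15.68 kb, and Ctsd was the nearest protein-coding gene to each. Gained peaks stood at −5.25, −6.37, −8.63, −10.09 and −15.68 kb and shared peaks at −2.33 and −11.46 kb. GGAAGT was found in the central 80 bp of 6 of the 7, the exception being the peak at −5.25 kb. Of the 21951 protein-coding genes, 385, or 1.75%, had at least as many gained PU.1 peaks.

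CEBPA went from 4 to 3 peaks at Ctsd, and none was gained. The shared PU.1 peaks at −2.33 and −11.46 kb and the gained PU.1 peak at −15.68 kb each overlapped a shared CEBPA peak, with PU.1+ centres 16, 88 and 43 bp apart. At −8.63 kb, a lost CEBPA peak lay 7 bp from a gained PU.1 peak. This was the only site of the 37 where a gained PU.1 peak met a lost CEBPA peak.

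By the counts of the 3 classes of both factors, the Ctsd locus was matched exactly by 1 protein-coding gene, Ubash3b, which encodes a tyrosine phosphatase. A further 4 genes differed from it by a summed count of 1. Ctsc and Ctss had 3 gained PU.1 peaks each, which 6.8% of protein-coding genes reached, and Ctsb, Ctsh and Ctsk had 2, which 15.3% reached. Ctsl and Ctsz had 1, and 36.7% of genes had 1 or more. Neighbours in this order differed by 1 or 2 peaks, Ctsd included.

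**Figure D3:**
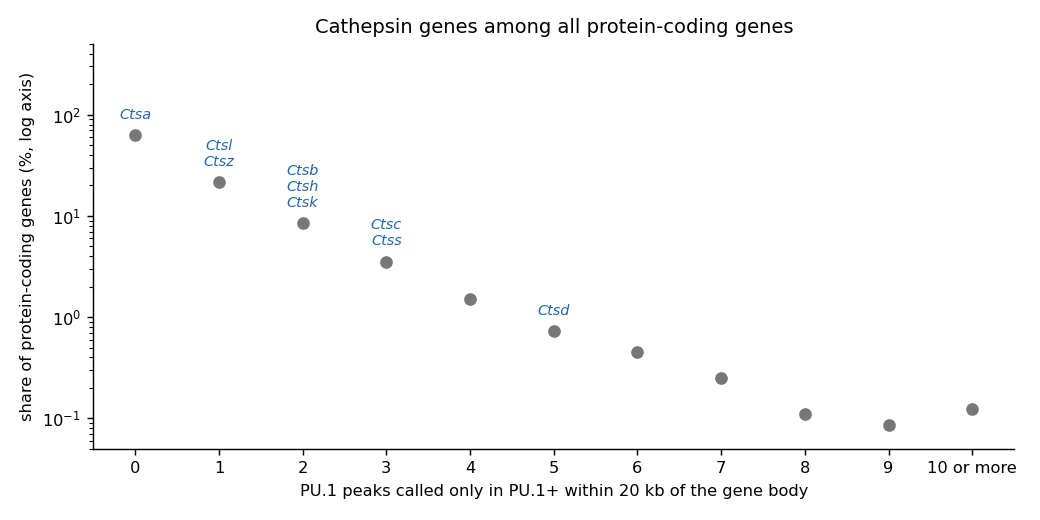
Share of protein-coding genes (log axis, in %) by the number of gained PU.1 peaks within 20 kb of the body, with the cathepsin genes named above the point for their number. Most genes, 63.3%, have 0 such peaks, as does Ctsa, and 0.733% have exactly 5, as does Ctsd.

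Ctsa (chr2:164832873-164841032, plus strand), the serine carboxypeptidase that protects lysosomal beta-galactosidase and neuraminidase, had no peak in any of the 4 lists. The nearest outside the window was a gained PU.1 peak, 21653 bp from the gene body. At the edge of the other windows, the gained PU.1 peak of Ctsh lay just inside, at 19987 bp from the body. The gained CEBPA peak that overlapped it lay just outside, at 20035 bp.

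PU.1 and CEBPA peaks coincided often at the cathepsin loci. In PU.1+, 12 of 23 PU.1 peaks overlapped a CEBPA peak (52.2%, interval 30.6 to 73.2%), beside 29.8% of the whole list. Their centres lay 2 to 88 bp apart, with a median of 36 bp, beside a median of 52 bp over all 4680 overlapping pairs. Of the 6 shared PU.1 peaks, 5 overlapped a shared CEBPA peak, beside 53.3% of all shared PU.1 peaks.

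Of the 17 gained PU.1 peaks, 5 overlapped a gained CEBPA peak (29.4%), beside 7.17% in the whole list. These were at Ctsb, Ctsc, Ctsh, Ctss and Ctsz. A further 2 overlapped a shared CEBPA peak, at Ctsc and Ctsd (11.8%, beside 16%), and 10 overlapped no CEBPA peak of PU.1+ (58.8%, beside 76.8%), among them the Ctsd peak at −8.63 kb beside the lost CEBPA peak. Seen from CEBPA, 4 of the 7 gained peaks overlapped a gained PU.1 peak, beside 36.8% of the whole list, with an interval of 18.4 to 90.1% for the cathepsin share. The other 3 were the downstream and intronic CEBPA peaks of Ctsc.

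**Figure D4:**
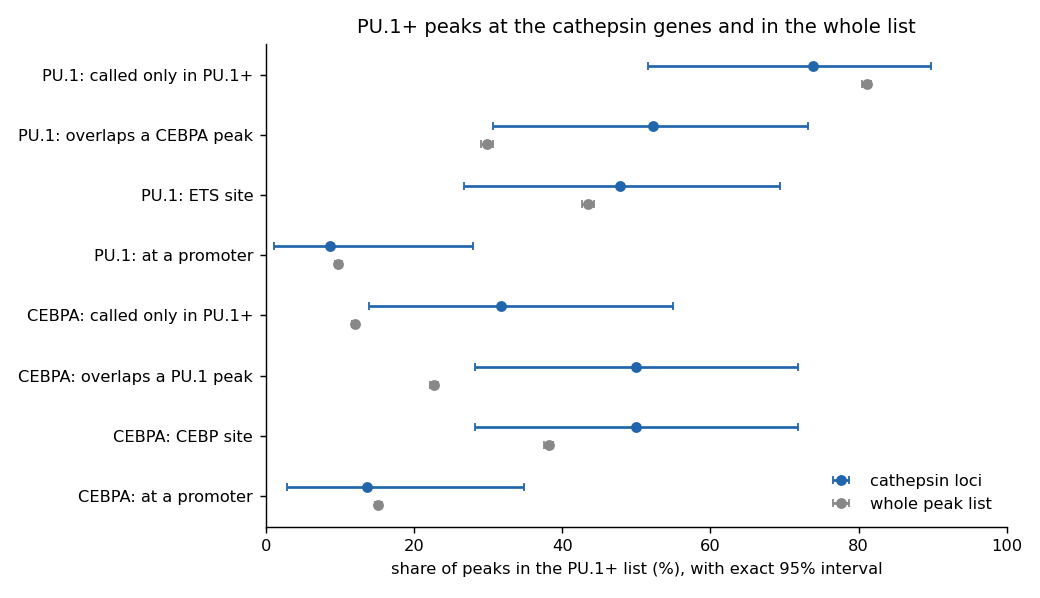
Share of the peaks in the PU.1+ lists that have each property, in %, for the peaks at the cathepsin loci (blue) and all peaks of the list (grey), with exact 95% intervals. The intervals of the 23 PU.1 and 22 CEBPA peaks are wide. They treat peaks as independent, while 4 of the 7 gained CEBPA peaks lie at Ctsc alone. Of the 8 properties drawn, the whole list lies below the cathepsin interval for 3, namely the gained share for CEBPA (31.8% against 12.1%) and the shares that overlap the other factor (52.2% against 29.8% for PU.1, and 50% against 22.7% for CEBPA).

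GGAAGT was found in the central 80 bp of 11 of the 23 PU.1+ PU.1 peaks (47.8%, interval 26.8 to 69.4%), beside 43.5% of all PU.1+ PU.1 peaks. All motifs were searched on both strands as exact letters. In windows of the same length centred 2000 bp to either side of all PU.1+ PU.1 peaks, 4.44% held GGAAGT. Of the 17 gained peaks, 8 held GGAAGT, beside 42.9% of all gained PU.1 peaks. The shorter core GGAA, which GGAAGT contains, was present in 20 of the 23, beside 91.1% of the list and 55.9% of the flanking windows.

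The 12 GGAAGT sites in these PU.1+ peaks lay between −28 and 37 bp from the peak centre, with a median distance of 21 bp. The longer form GAGGAAGT was present in 3 of 23 PU.1 peaks, all at Ctsd, beside 15.2% of the list. Among CEBPA peaks of PU.1+, GAGGAAGT was present in 4 of 22 (18.2%, interval 5.19 to 40.3%), at Ctsc, Ctsd and Ctsh, beside 1.61% of that list. In PU.1−, 3 of 19 CEBPA peaks held it, beside 1.24%. These 3, at Ctsd and Ctsh, were the PU.1− partners of shared peaks already counted in PU.1+, so the same DNA was counted again. In 3 shared PU.1 pairs, at Ctsd and Ctsz, both peaks had GGAAGT, and the PU.1− centres lay 5, 6 and 1 bp from it, nearer than the PU.1+ centres at 37, 11 and 28 bp. Over all 2001 such pairs, the PU.1− centre was the nearer in 43.8%.

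CEBP sites were found in the centre of 11 of the 22 CEBPA peaks of PU.1+ (50%, interval 28.2 to 71.8%), beside 38.2% of all CEBPA peaks of PU.1+ and 3.25% of flanking windows. Of the 7 gained CEBPA peaks, 3 held such a site, all at Ctsc, beside 30.8% of all gained CEBPA peaks. None of the 4 gained CEBPA peaks that overlapped a gained PU.1 peak held the exact letters TTGCNNAA in its centre, and looser forms were not searched. By a stricter definition of sharing, the PU.1+ CEBPA peak at the Ctsc promoter, which holds a CEBP site, would join these peaks. The RUNX-type letters TGNGGT were present in 3 of the 23 PU.1 peaks, beside 19.4%, and the AP-1 letters TGANTCA in 1, beside 3.9%. CACGTG, the core of the element that TFEB and related factors bind at lysosomal genes, was present in the centre of no peak at the cathepsin loci (0 of 23 for PU.1 in PU.1+, interval up to 14.8%), beside 0.778% of all PU.1 peaks and 1.49% of all CEBPA peaks of PU.1+, so that a count of 0 does not set the loci apart. It was present in a promoter of 3 of the 7 cathepsin genes matched in the RefSeq table (Ctsa, Ctsd and Ctsl), beside 7.15% of 32851 promoters. The first share counts genes, of which Ctsa has more than 1 promoter, and the second counts single promoters. Those promoters are windows of 300 bases around the RefSeq start, and none of the PU.1 peak centres lay there.

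By position, 2 of the 23 PU.1 peaks of PU.1+ were at a promoter, within 1000 bp of a transcript start (8.7%, interval 1.07 to 28%), beside 9.78% of the list. These were the gained peaks at Ctsc and Ctsz. A protein-coding gene body held 7 of the 23 (30.4%, interval 13.2 to 52.9%), beside 53.6% of the list. The windows add 20 kb of flank to each side of a body, a rule that the whole list does not follow. These shares therefore cannot be compared directly. The remainder lay between genes, 7 of them in the stretch upstream of Ctsd.

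Genes related to the cathepsins or to the lysosome were counted in the same way for comparison, by the same 20 kb rule. Of 14 other cathepsin genes, 4 had a gained PU.1 peak, led by Ctse with 6 and Cts3 with 1, and 1 had a gained CEBPA peak. Most of the 14 had no peak of either factor in either condition. Of 8 cystatin and stefin genes, whose products inhibit cysteine cathepsins, 2 had a gained PU.1 peak, Cst3 with 3 and Cst7 with 1. These shares stood near or below the 36.7% of all genes, beside 8 of 9 for the cathepsins above, and the difference was not tested. The lists were not matched to the 9 cathepsins by the tissues that express the genes.

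Of 24 other lysosomal hydrolases and their activators, 17 had a gained PU.1 peak, led by Psap with 5 and Fuca1 with 4, which encode the saposin precursor and a fucosidase. Of 14 lysosomal membrane proteins, 9 had such a peak, led by Scarb2 with 4 and Cd68 with 2. Of 6 genes of mannose-6-phosphate sorting and related receptors, 5 had it, led by Sort1 with 4 and Gnptab with 2. All 4 genes for the MiT family of transcription factors, which drive lysosomal genes, had it, led by Mitf with 7 and Tfec with 4. The median number of gained PU.1 peaks per gene was 2 for the 9 cathepsins, 0 for the other cathepsins and for the cystatin and stefin genes, 1 for the hydrolases and for the membrane proteins, 1.5 for the sorting genes, 2.5 for the MiT genes and 0 for all protein-coding genes.

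**Figure D5:**
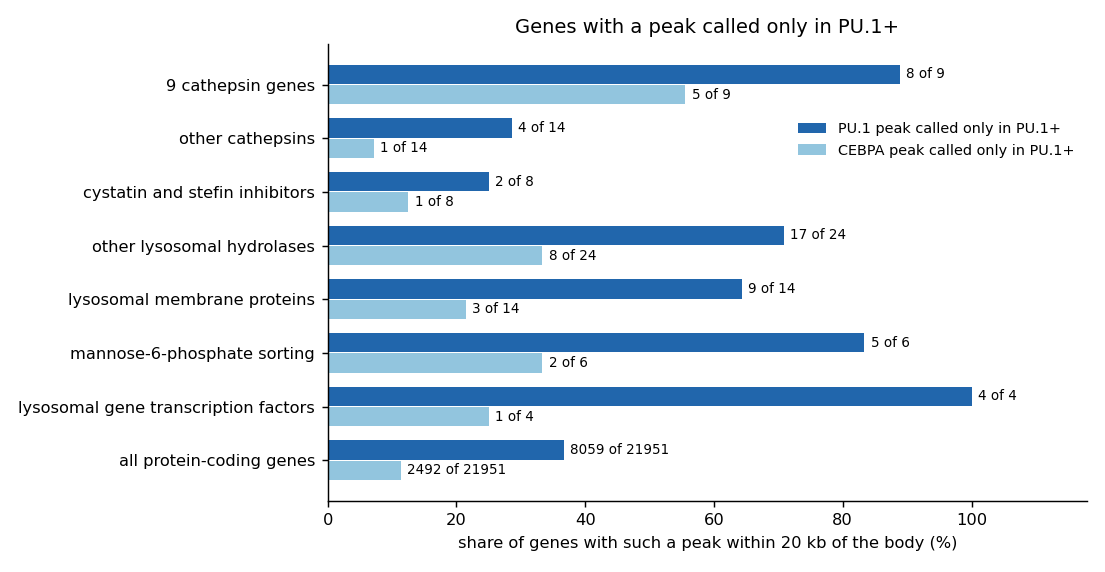
Share of genes, in %, with a gained PU.1 peak (dark) or a gained CEBPA peak (light) within 20 kb of the body. Bars are for the 9 cathepsin genes, lists of related genes and all protein-coding genes, with the counts beside them. The dark bar is longest for the MiT transcription factors (4 of 4) and the cathepsins (8 of 9), and the light bar for the cathepsins (5 of 9). Ctsk counts in both bars only through peaks that are nearer to Ctss and also counted for Ctss.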

How the data were processed

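The authors aligned ChIP-Seq reads with Bowtie2 (2.0.6) and called peaks with MACS2 (2.0.10) on mm10, per the submitters' processing notes, and deposited a list of intervals for each library. All intervals were 400 bp wide. The calling threshold and the step that set this width are not given in the sources used here. Of the 8 samples listed, the 4 PU.1 and CEBPA libraries were used, and H3K27Ac and IgG were not analysed here. No peak lay beyond the end of its mm10 chromosome.

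Peaks were assigned to genes by their centre (within 20 kb of a GENCODE vM21 protein-coding gene body), compared by an overlap of at least 1 bp, and searched for exact motifs in the central 80 bp of the GRCm38 sequence with Python 3.11.15, pysam 0.24.0 and scipy 1.17.1. Shared peaks were counted in PU.1+. The functions were tested on simulated peaks. With 1 library per antibody and condition, no p-values were computed. The genes named from the comparison lists were the 2 in each with the most gained PU.1 peaks (called in PU.1+ without an overlapping peak in PU.1−), ties in alphabetical order. The 9 genes and the lists were chosen with earlier results of these data known.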

Additional observations from a re-analysis of the deposited data

How the results depend on the processing

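Of 59 values recomputed under another window, overlap rule, motif or promoter limit, 51 stayed within 1.5 times the count or within the interval of the share. The intervals are wide, so for the shares this was a loose limit. Among the 51, the promoter share of PU.1 peaks was 21.7% with a limit of 2500 bp, in place of 8.7%. The share with GGAAGT was 35.3% with a window of 10 kb, in place of 47.8%. With a window of 50 kb, the PU.1 peaks in PU.1+ numbered 35 and the gained PU.1 peaks 29. With 10 kb, 2 CEBPA peaks were lost in place of 4. Where the cathepsin gene had to be the nearest protein-coding gene, 7 genes had a gained PU.1 peak in place of 8. With an overlap of 50% of both peaks, or with centres within 100 bp, 2 PU.1 peaks were lost in place of 1, the additional peak being that of Ctsl. GAGGAAGT in place of GGAAGT was present in 13% of the PU.1 peaks of PU.1+, and GGAA in 87%. No PU.1 peak lay within 500 bp of a transcript start, a share of 0%. The depth of the libraries and the calling threshold limit every count. No paired analysis was possible because each antibody and condition had 1 library.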
